A study of Homo sapiens with 6 samples.

Results

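The genes examined were 45 genes of the ATF4 pathway and the unfolded protein response, chosen by name from the table of counts, and all 45 were among its 17297 genes. They were measured by RNA-seq in LNCaP, an established androgen-responsive human prostate cancer cell line. One stable line carried wild-type GNA13, which encodes the G protein subunit Gα13, in the pBabe-puromycin vector (pBabe-GNA13). The other carried the vector alone (pBabe-vector), both lines were kept under puromycin selection, and 3 libraries were made from each after 48 h of culture. Each condition is therefore 1 transduced line, so an effect of GNA13 and any other difference between the lines cannot be told apart. The p-values measure the spread between libraries of the same line. Where replicate pairs are taken as a block, as set out below, they measure the spread that the pairs leave. The labels name 3 biological replicates per line. One library of each line bears the tag std in its column heading, and these are set side by side as the std pair, with the libraries numbered 2 as pair 2 and those numbered 3 as pair 3.

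Cells answer a load of misfolded protein in the endoplasmic reticulum (ER), or a lack of amino acids, by slowing translation and switching on repair genes. The kinase PERK (EIF2AK3) and its relatives phosphorylate eIF2α, which lowers overall translation but favors that of the transcription factor ATF4. ATF4 induces genes for amino acid uptake and synthesis, tRNA charging and, with its partner CHOP (DDIT3), cell death. The sensors IRE1 (ERN1) and ATF6 act through the transcription factors XBP1 and cleaved ATF6, which induce chaperones, folding enzymes and the machinery that removes misfolded proteins from the ER. The mRNA level of ATF4 does not give its protein level, because ATF4 is mainly controlled at translation.

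GNA13 itself stood at 820, 886 and 747 CPM (counts scaled to a common library total) in the std, 2 and 3 libraries of pBabe-GNA13 and at 76.7, 69.4 and 65.4 CPM in those of pBabe-vector. Its log2 fold change was 3.54 (adjusted p = 9.16e-05), as the labels of the lines require. Libraries held 33002160 to 40628970 counts, and 3 counts equal 0.0738 to 0.0909 CPM, far below the level of every member. All 6 LNCaP markers were present, with a summed level of 4818 to 7608 CPM in pBabe-GNA13 and 4052 to 6857 CPM in pBabe-vector. Of 6 markers of other cell types, PTPRC and PECAM1 were not among the genes of the deposited counts. The sum of VWF, COL1A1, DCN and KRT5 was 34.9 to 51.0 CPM in pBabe-GNA13 and 18.6 to 43.8 CPM in pBabe-vector. DCN was at 0 in 3 libraries and KRT5 at 0 in replicate 2 of both lines.

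Promoter sequences are shown because the members fall into groups that are known to be read by different factors. ATF4 and its C/EBP partners bind the amino acid response element, searched as TGATGNAA, whose form TGATGCAA is common. ATF6 and XBP1 act through the ER stress element, searched as CCAAT, 9 bases and CCACG, and XBP1 and ATF6 also through TGACGTGG. Both strands were searched from 250 bases before to 50 bases after the start in the RefSeq promoters (GRCh38.p14), which held 41 of the 45 members. The ER stress element stood in 7 of these 41 members (17.1%) and in 0.14% of 11394 genes of the table, 16 genes in all. The amino acid response element stood in 8 members (19.5%) and in 2.82% of genes, its common form in 4 members (9.76%) and in 0.746% of genes. TGACGTGG was found in HYOU1 only among the members and in 1.23% of genes. A match describes letters in a window and not a site in use. In the stretches below, capitals mark the letters of the element, read along the gene's own strand, so that CALR, CRELD2, CHAC1 and HERPUD1 carry it in its other orientation.
HSPA5, ER stress element, chr9:125241366-125241434, minus strand: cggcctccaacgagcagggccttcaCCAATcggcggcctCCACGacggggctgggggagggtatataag
CALR, ER stress element, chr19:12938359-12938427, plus strand: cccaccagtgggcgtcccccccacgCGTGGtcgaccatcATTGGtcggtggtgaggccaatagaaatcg
CRELD2, ER stress element, chr22:49918529-49918597, plus strand: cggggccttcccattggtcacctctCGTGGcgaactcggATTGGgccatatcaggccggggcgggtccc
XBP1, ER stress element, chr22:28800578-28800646, minus strand: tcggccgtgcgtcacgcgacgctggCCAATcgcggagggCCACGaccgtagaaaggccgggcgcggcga
ASNS, amino acid response element, chr7:97872458-97872487, minus strand: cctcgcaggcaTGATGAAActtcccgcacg
CEBPG, amino acid response element, chr19:33374046-33374103, plus strand: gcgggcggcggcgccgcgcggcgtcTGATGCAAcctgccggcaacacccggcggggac
CHAC1, amino acid response element, chr15:40953251-40953280, plus strand: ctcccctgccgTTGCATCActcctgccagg
HERPUD1, amino acid response element, chr16:56931941-56931998, plus strand: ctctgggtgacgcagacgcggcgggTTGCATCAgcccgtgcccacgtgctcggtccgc

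Levels per kilobase of transcript describe the mRNA of each part of the program, not its activity. In pBabe-vector, the lectin chaperone CALR stood highest among the folding genes, at a mean of 669 CPM per kb, and its range of 627 to 714 lay above that of HSP90B1 (300 to 445). ATF4 mRNA stood at 508 CPM per kb (286 to 642), overlapping the range of PHGDH, the entry enzyme of serine synthesis (331 to 447). HSPA5, the ER chaperone BiP, stood at 220 CPM per kb (194 to 246). DDIT3 stood at 18.6 CPM per kb (9.01 to 27.2) and CHAC1, which degrades glutathione, at 22.6 (6.95 to 34.8), ranges that overlapped. VLDLR, a lipoprotein receptor, was the lowest member, at 1.06 CPM per kb (0.866 to 1.16), and the sensors EIF2AK3, ATF6 and ERN1 stood between 6.52 and 8.43 CPM per kb on average.

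The question put to the lines was whether GNA13 expression went with a different level of this program. With the line as the only term, no member passed the threshold (0 of 45 in edgeR, DESeq2 and limma-trend), while 0.139% of all genes did in edgeR, 1.57% in DESeq2 and 0.0289% in limma-trend. At an unadjusted p under 0.05, 2 of 45 members (CRELD2 and MANF) and 1464 of 17297 genes stood in edgeR. When the pair was taken as a block, 19 members were lower and 2 were higher in pBabe-GNA13, and 24 did not pass. Across all genes the same fit called 10.4% lower and 9.32% higher, and 12.5% lower among genes of at least 1 CPM on average, a level that all 45 members reached. The median log2 fold change of the members in the blocked fit was -0.11, with 32 of 45 below 0, and that of all genes was -0.0026. In bulk RNA, a lower level in every cell and fewer expressing cells cannot be told apart. Markers moved between the lines as well: with the block, KLK3 (0.21) and KLK2 (0.93) of the 6 LNCaP markers and VWF (0.67) and KRT5 (2.52) of the 4 markers of other cell types measured were higher in pBabe-GNA13, and none was lower. Their part in the differences of the members was not tested.

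The median difference between the lines varied by chromosome, which touches some members. Position along a chromosome was not examined, so a chromosome median need not be the shift at a given gene. In the blocked fit the median log2 fold change was 0.29 on chromosome 12, -0.21 on chromosome 20, -0.15 on chromosome 22 and 0.12 on chromosome 9, against -0.06 to 0.07 on the others. DDIT3, SHMT2 and HSP90B1 lie on chromosome 12, CEBPB and TRIB3 on 20, ATF4, XBP1, SDF2L1 and CRELD2 on 22, and HSPA5, PSAT1 and VLDLR on 9. With each chromosome centered on its own median, 13 members were lower and 3 higher, beside 7.6% and 6.72% of all genes. The calls of 7 members (DDIT3, ASNS, SLC7A11, WARS, GARS, SDF2L1 and MANF) also stood in the blocked fit without each pair in turn, and those of 6, all but SDF2L1, also after centering. Members not called in the blocked fit on all 3 pairs passed when a pair was left out. These were TRIB3 and CANX without the std pair, HSP90B1 without pair 2, and CANX and PDIA4 without pair 3. Fits without a pair hold fewer libraries, yet their adjusted p could be smaller. For DDIT3 it was 5.63e-05 with all pairs and 5.78e-21 without the std pair. A call kept or gained in such a fit is therefore a description and not a test of how firm the call is.

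**Figure D1:**
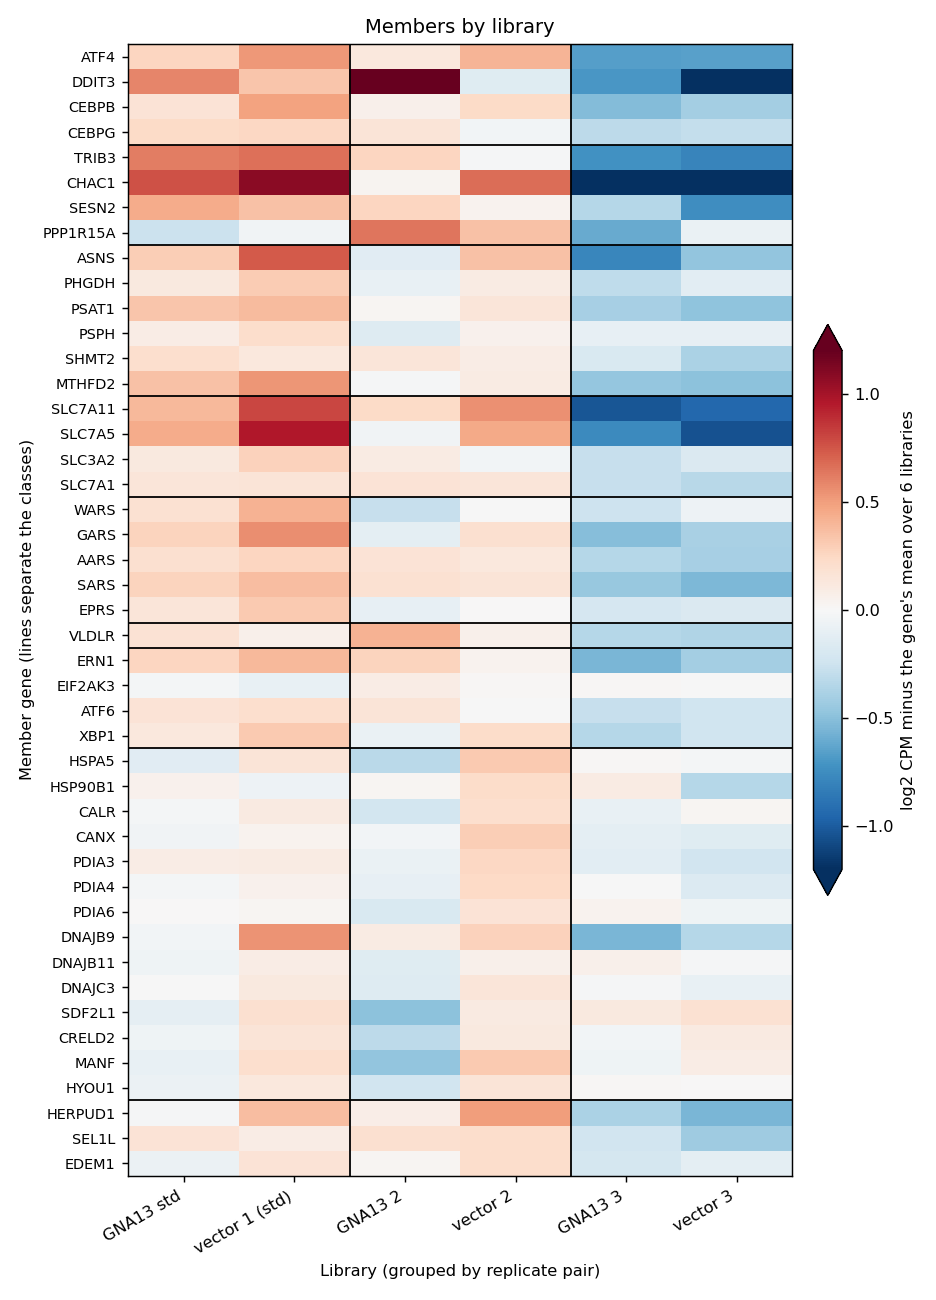
Each row is a member gene and each column a library, grouped by replicate pair; color gives log2 CPM minus the gene's mean over the 6 libraries, and the most extreme cells exceed the ends of the scale. Genes above the chaperones are mostly red in the std pair and blue in pair 3 in both lines, whereas the chaperones from HSPA5 to HYOU1, apart from DNAJB9, are mostly pale in pair 3 and mostly bluer in pBabe-GNA13 than in pBabe-vector in pair 2.

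ATF4 was at 763, 697 and 404 CPM in the std, 2 and 3 libraries of pBabe-GNA13 and at 912, 843 and 406 CPM in those of pBabe-vector. The lines differed in the std pair and in pair 2 and were close in pair 3, and their ranges overlapped. Its log2 fold change was -0.18 ± 0.05 (SE) with the block (adjusted p = 0.0177) and -0.05 with chromosome 22 centered (adjusted p = 0.554). The call was also lost without the std pair (-0.14, adjusted p = 0.0749) and without pair 2 (-0.14, adjusted p = 0.0934).

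DDIT3, which encodes the pro-apoptotic factor CHOP, went the other way. It stood at 29.2, 44.6 and 12.0 CPM in the std, 2 and 3 libraries of pBabe-GNA13 and at 24.6, 17.6 and 8.13 CPM in those of pBabe-vector. It was higher in pBabe-GNA13 in each of the 3 pairs, most in pair 2, although the ranges of the lines overlapped. The log2 fold change was 0.73 ± 0.12 with the block (adjusted p = 5.63e-05) and 0.44 with chromosomes centered (adjusted p = 0.0151). Without pair 2 it was 0.37, and without the std pair 1.03. DDIT3 overlaps MARS and MBD6 on the other strand, and the use of strand in the counting is not given in the sources used here. CEBPB was lower (log2 fold change -0.20, adjusted p = 0.00733 with the block), but at 0.00 after centering of chromosome 20, and not called without the std pair (-0.14, adjusted p = 0.131). CEBPG was nearly equal between the lines, at 0.05 (adjusted p = 0.625).

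Among the feedback and stress effectors, the lines differed gene by gene. TRIB3, a pseudokinase that restrains ATF4 and CHOP, stood at 250, 195 and 98.6 CPM in pBabe-GNA13 and at 258, 162 and 94.5 CPM in pBabe-vector. Its log2 fold change was 0.09 with the block (adjusted p = 0.29) and 0.29 after centering of chromosome 20 (adjusted p = 0.000648). CHAC1 stood at 42.3, 25.4 and 10.1 CPM in pBabe-GNA13 and at 52.9, 39.6 and 10.6 CPM in pBabe-vector, and was thus lower in the std pair and in pair 2 and close in pair 3. It was lower with the block (-0.38 ± 0.08, adjusted p = 0.000964), a call lost without pair 2 (-0.23, adjusted p = 0.0576). SESN2, a leucine sensor that inhibits mTORC1, was higher (0.23, adjusted p = 0.00523), a call lost without pair 3 (0.16, adjusted p = 0.141). PPP1R15A, the GADD34 phosphatase subunit that reverses eIF2α phosphorylation, gave -0.12 (adjusted p = 0.627).

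**Figure D2:**
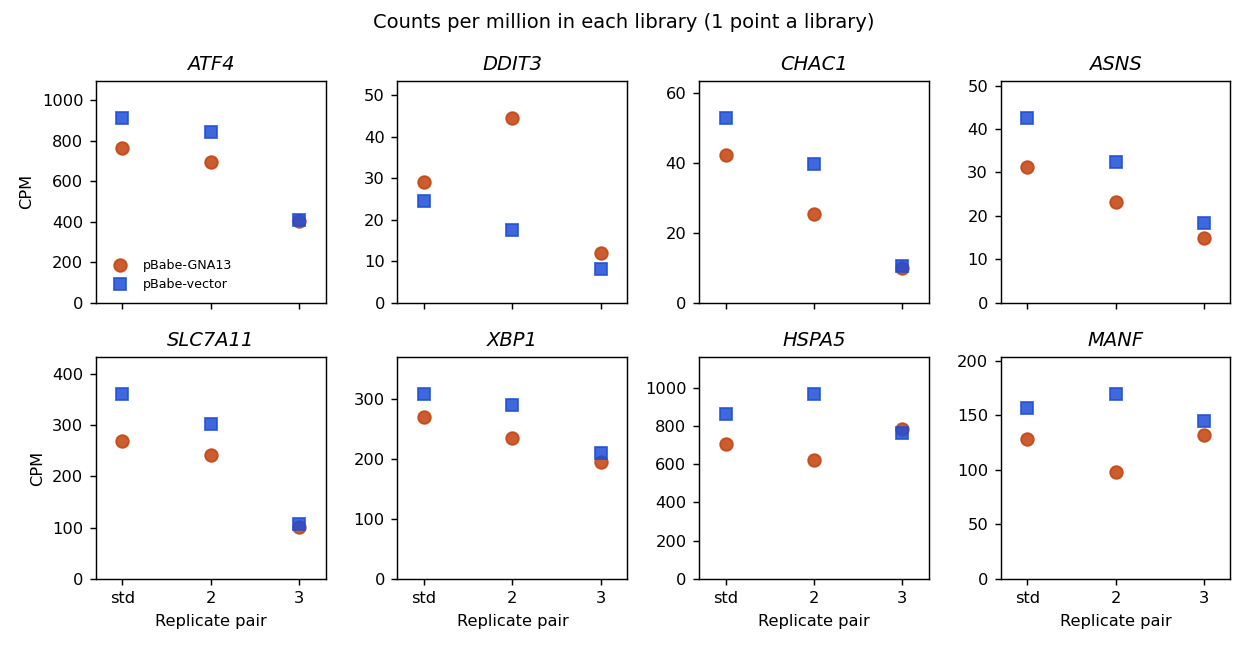
CPM on a linear axis from 0 for 8 members, by replicate pair; each circle is a pBabe-GNA13 library and each square a pBabe-vector library. ATF4, CHAC1 and SLC7A11 sit far lower in pair 3 than in the other pairs in both lines, DDIT3 is highest in pBabe-GNA13 of pair 2 at 44.6 CPM, and HSPA5 and MANF have their widest gap between lines in pair 2.

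Of the enzymes that make asparagine, serine and one-carbon units, 2 of 6 were called lower with the block, beside 10.4% of all genes. Asparagine synthetase, ASNS, stood at 31.3, 23.2 and 14.8 CPM in pBabe-GNA13 and at 42.5, 32.5 and 18.4 CPM in pBabe-vector. It was lower in every pair, with log2 differences of -0.44, -0.48 and -0.31, though the ranges of the lines overlapped. The log2 fold change was -0.42 ± 0.07 with the block (adjusted p = 5.67e-05) and -0.38 after centering (adjusted p = 0.0003). PHGDH was lower (-0.18, adjusted p = 0.00745), a call lost without pair 3 (-0.17, adjusted p = 0.0736). MTHFD2, a mitochondrial one-carbon enzyme, stood at 300, 233 and 171 CPM in pBabe-GNA13 and at 340, 252 and 167 CPM in pBabe-vector, with a difference of -0.09 (adjusted p = 0.287). PSAT1, SHMT2 and MTHFD2 passed as lower only after centering, at -0.15, -0.18 and -0.17. Before centering, SHMT2, on chromosome 12, was higher in pBabe-GNA13 in each pair, at 0.11 with the block (adjusted p = 0.137).

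The amino acid transporters split in the same way, with 2 of 4 called lower, beside 10.4% of all genes. SLC7A11, the cystine importer that feeds glutathione synthesis, stood at 270, 243 and 101 CPM in pBabe-GNA13 and at 361, 302 and 108 CPM in pBabe-vector. It was lower in each pair, least in pair 3, with a log2 fold change of -0.28 ± 0.06 (adjusted p = 0.000697 with the block). SLC7A5, a leucine importer, stood at 28.03, 20.01 and 12.1 CPM in pBabe-GNA13 and at 40.1, 28.3 and 10.0 CPM in pBabe-vector. Its call as lower (-0.30, adjusted p = 0.0321) was lost after centering (-0.26, adjusted p = 0.0816), without the std pair (-0.15, adjusted p = 0.334) and without pair 2 (-0.20, adjusted p = 0.151). SLC3A2, the heavy chain that both of these transporters need, and SLC7A1, an arginine importer, had log2 fold changes of -0.04 and 0.02.

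Of the 5 tRNA synthetases, GARS and WARS were lower, beside 10.4% of all genes. GARS stood at 474, 363 and 278 CPM in pBabe-GNA13 and at 582, 450 and 302 CPM in pBabe-vector, lower in every pair (-0.24 ± 0.05, adjusted p = 0.00112 with the block). WARS was also lower in every pair (-0.23, adjusted p = 0.00178). AARS, SARS and EPRS had log2 fold changes of 0.01, 0.00 and -0.10 and did not pass. VLDLR had 0.17 (adjusted p = 0.27).

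DDIT3, CEBPB, CEBPG, the effectors, enzymes, transporters, synthetases and VLDLR are together called the 23 ATF4 targets. As a class they had 8 called lower and 2 called higher with the block, beside 10.4% and 9.32% of all genes. Their median log2 fold change was -0.09, with 14 below 0 and 9 above, beside -0.0026 over all genes. No member of the class had groups that did not overlap, beside 6.79% of all genes lower and 7.3% higher without overlap.

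Of the sensors and the transcription factors of the unfolded protein response, XBP1 alone was called with the block. Beside it stood 10.4% of all genes called lower and 9.32% called higher. XBP1 stood at 270, 234 and 195 CPM in pBabe-GNA13 and at 308, 288 and 209 CPM in pBabe-vector, lower in each pair. Its log2 fold change was -0.20 ± 0.05 with the block (adjusted p = 0.00738) and -0.07 after centering of chromosome 22 (adjusted p = 0.401), and it was not called without pair 2 (-0.15, adjusted p = 0.0862). Counts per gene do not tell spliced from unspliced XBP1 mRNA. EIF2AK3 was the steadiest of the sensors, at 29.6 to 32.1 CPM in pBabe-GNA13 and 28.4 to 30.4 CPM in pBabe-vector. ERN1 and ATF6 had log2 fold changes of -0.02 and 0.03.

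Of the 14 ER chaperones and folding enzymes, 7 were lower in pBabe-GNA13 with the block (HSPA5, CALR, DNAJB9, SDF2L1, CRELD2, MANF and HYOU1) and none was higher, beside 10.4% and 9.32% of all genes. Their median log2 fold change was -0.16, and 13 of 14 were below 0. After centering, HSPA5, CALR, DNAJB9 and MANF passed as lower and none as higher, beside 7.6% and 6.72% of all genes, and all 14 were below 0.

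HSPA5 stood at 704, 621 and 786 CPM in pBabe-GNA13 and at 861, 966 and 762 CPM in pBabe-vector. The lines were apart in the std pair and in pair 2, whereas in pair 3 pBabe-GNA13 was slightly above pBabe-vector. The log2 fold change was -0.29 ± 0.07 with the block (adjusted p = 0.00421) and -0.42 after centering (adjusted p = 0.00012), and the call was lost without pair 2 (-0.13, adjusted p = 0.119). MANF, a secreted ER stress protein, stood at 128, 98.2 and 131 CPM in pBabe-GNA13 and at 156, 169 and 145 CPM in pBabe-vector, with no overlap. Its log2 fold change was -0.40 ± 0.07 with the block (adjusted p = 0.000235) and -0.22 without pair 2, where it was still called. An exact permutation test over the libraries (two-sided) gave p = 0.1, the smallest that 3 against 3 allow. CALR and CRELD2 were the other members without overlap, so 3 of 45 were lower without overlap beside 6.79% of all genes, and 0 of 45 were higher without overlap beside 7.3%, shares at or below the background. DNAJB9, a cochaperone of BiP, stood at 22.5, 24.5 and 15.7 CPM in pBabe-GNA13 and at 33.2, 27.8 and 18.1 CPM in pBabe-vector, and its call (-0.33, adjusted p = 0.00349) was lost without the std pair (-0.19, adjusted p = 0.154).

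The gap of the chaperones was widest in pair 2. Their median difference between the lines was -0.13 in the std pair, -0.34 in pair 2 and 0.04 in pair 3. Without pair 2, the calls of HSPA5, CALR (-0.12, adjusted p = 0.117), CRELD2 (-0.18, adjusted p = 0.0641) and HYOU1 (-0.10, adjusted p = 0.311) were lost. SDF2L1 was lower in each pair (-0.32 with the block, adjusted p = 0.000966), and its call was lost after centering (-0.19, adjusted p = 0.0603). MANF was likewise lower in each pair. CANX, PDIA3, PDIA4, PDIA6, DNAJB11 and DNAJC3 had log2 fold changes of -0.13 to -0.08 and did not pass with all 3 pairs. HSP90B1, on chromosome 12, had 0.12 before and -0.17 after centering, and passed in neither fit. Without pair 2 it was called higher in pBabe-GNA13 (0.27, adjusted p = 2.48e-05), a call with the limit of such fits given above.

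**Figure D3:**
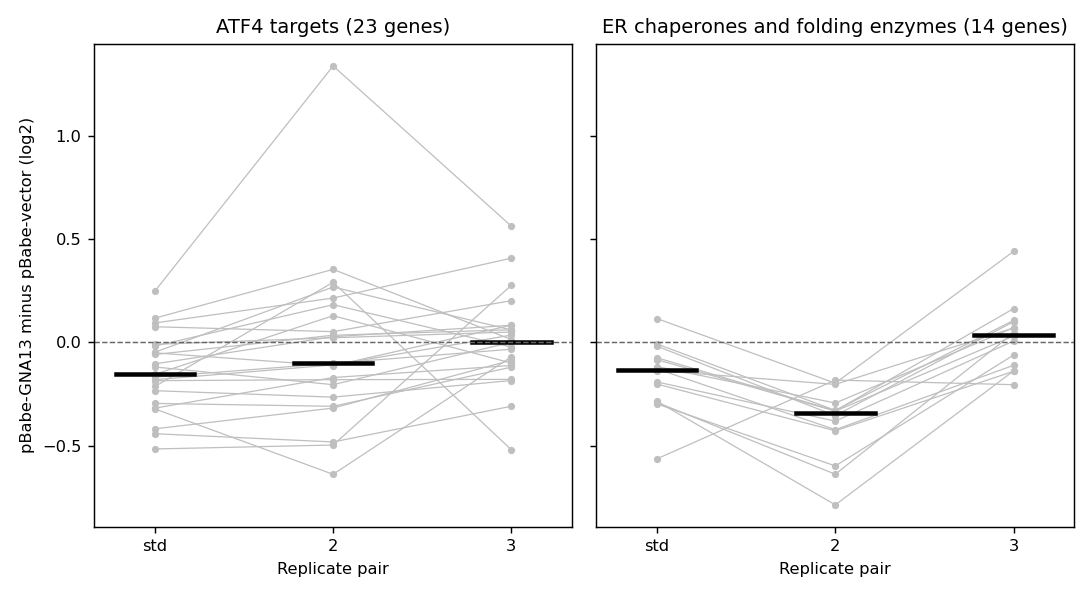
The log2 difference between pBabe-GNA13 and pBabe-vector in each replicate pair; each gray line joins the values of 1 gene, and black bars are medians over the class. The ATF4 targets scatter around medians of -0.15, -0.10 and 0.00, with DDIT3 far above the rest in pair 2, and the median of the chaperones goes from -0.34 in pair 2 to 0.04 in pair 3, with DNAJB9 lowest in the std pair instead.

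Of the 3 genes of ER-associated degradation, HERPUD1 and EDEM1 were lower, beside 10.4% of all genes. HERPUD1, a ubiquitin-like scaffold of the degradation complex, stood at 158, 168 and 123 CPM in pBabe-GNA13 and at 207, 225 and 109 CPM in pBabe-vector. It was lower in the std pair and in pair 2 and higher in pair 3, and its call (-0.22, adjusted p = 0.0347 with the block) was lost after centering (-0.18, adjusted p = 0.0961), without the std pair (-0.13, adjusted p = 0.167) and without pair 2 (-0.12, adjusted p = 0.231). EDEM1, which marks misfolded glycoproteins for removal, was lower in every pair (-0.17, adjusted p = 0.0181), but it was not called after centering (-0.13, adjusted p = 0.0873), without the std pair (-0.14, adjusted p = 0.116) or without pair 2 (-0.17, adjusted p = 0.0769). SEL1L gave 0.09 (adjusted p = 0.297).

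More members differed between replicate pairs than between lines. Of 45 members, 34 differed between pairs in a test of both pair terms together, beside 47.4% of all genes. All 23 ATF4 targets were among them, and ATF4 itself, but only CANX, PDIA3, DNAJB9 and SDF2L1 of the 14 chaperones. The test takes the difference between pairs averaged over the lines, so that differences of opposite sign in the lines cancel. For HSPA5, library 3 minus library 2 was 0.34 in pBabe-GNA13 and -0.34 in pBabe-vector. No pair was itself repeated, so the p-values between pairs measure only the spread that line and pair leave. What the libraries of a pair share is not given in the sources used here. Possible sources of a difference between pairs, such as culture, harvest or library preparation, therefore cannot be told apart.

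In pair 3 against pair 2, 31 members were lower and 1 was higher, while 21.4% of all genes were lower and 20.7% higher, and 25.1% were lower among genes of at least 1 CPM. ATF4 fell with its targets, by 0.92 ± 0.07 on the log2 scale (adjusted p = 1.06e-11). Of the targets, 20 of 23 were lower and none was higher, with a median of -0.53, and the remaining 3 (PSPH, WARS and EPRS) had -0.04, -0.02 and -0.14. The largest differences were those of CHAC1 (-1.63 ± 0.10), DDIT3 (-1.56 ± 0.15), SLC7A11 (-1.37 ± 0.07) and SLC7A5 (-1.10 ± 0.13). TRIB3, PPP1R15A and ASNS followed at -0.88, -0.84 and -0.74.

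Both lines showed it, within the same pairs, which does not repeat a pair. Library 3 lay below library 2 for 21 of 23 targets in pBabe-GNA13, with a median of -0.50, and for 23 of 23 in pBabe-vector, with a median of -0.58. CHAC1, for example, differed by -1.33 in pBabe-GNA13 and -1.90 in pBabe-vector, and ATF4 by -0.79 and -1.05. All 8 members with an amino acid response element in their promoter, as printed above for ASNS, CEBPG, CHAC1 and HERPUD1, were lower in pair 3. Beside them stood 31 of all 45 members, 20 of the 23 ATF4 targets and 21.4% of all genes. A part of the element in this was not tested.

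Among the chaperones in the same contrast, HSP90B1, CANX, PDIA3 and DNAJB9 were lower, SDF2L1 was higher, and 9 of 14 did not pass, with a median of -0.02. The 4 of 14 lower stood near the 21.4% of all genes and the 1 of 14 higher below the 20.7%. HSPA5 had a difference of 0.00 with a standard error of 0.09. Within lines the chaperones went opposite ways, with a median of 0.17 in pBabe-GNA13, where 3 of 14 were below 0, and of -0.23 in pBabe-vector, where 13 of 14 were below 0. HSPA5 differed by 0.34 in pBabe-GNA13 and by -0.34 in pBabe-vector, and MANF by 0.42 and by -0.23. Each line has 1 library in a pair, so this difference between the lines was not tested. Of the 7 members with an ER stress element, 3 were lower in pair 3, beside 21.4% of all genes. In the blocked comparison of the lines, 4 of the 7 (HSPA5, CALR, CRELD2 and XBP1) were lower in pBabe-GNA13, beside 10.4% of all genes and 7 of the 14 chaperones. All 4 calls were lost without pair 2. Those of CRELD2 and XBP1 were also lost after centering (adjusted p = 0.136 and 0.401).

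**Figure D4:**
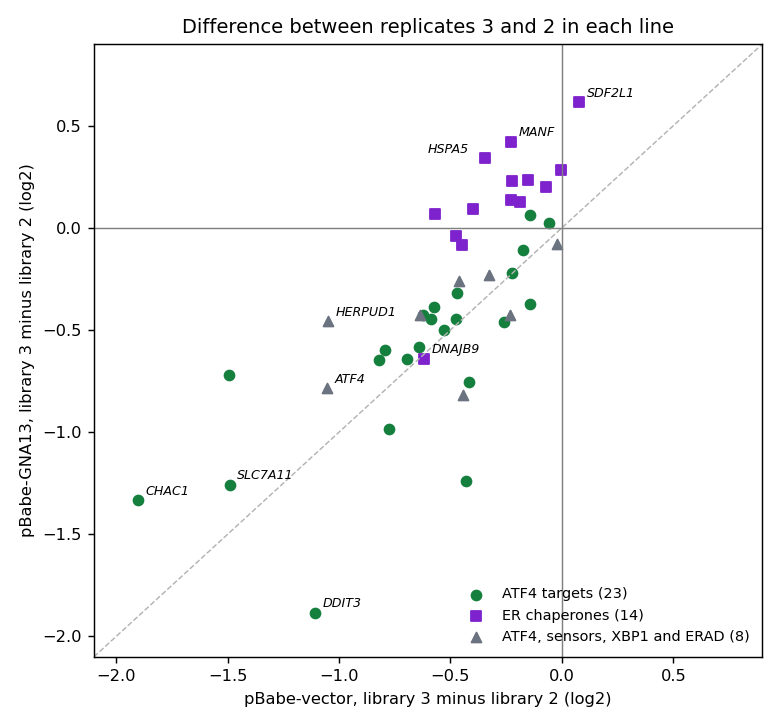
The log2 difference between library 3 and library 2 in pBabe-vector (x axis) and in pBabe-GNA13 (y axis), 1 point per member; the dashed line marks equal values. ATF4 and most of its targets lie in the lower left, down to -1.90 and -1.33 for CHAC1, while most chaperones lie above 0 in pBabe-GNA13 and below 0 in pBabe-vector.

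The std pair stood at the other end. Against pair 3, 31 members were higher and none lower, beside 17.1% and 15.8% of all genes, and 22 of 23 ATF4 targets were higher with a class median of 0.79. CHAC1 was 2.20 higher on the log2 scale, SLC7A5 1.59, SLC7A11 1.58 and ATF4 1.04 (adjusted p = 3.05e-12). Against pair 2, 14 members were higher and 1 (PPP1R15A) was lower, beside 10.6% and 9.05% of all genes, among them TRIB3 at 0.51, CHAC1 at 0.56, SLC7A5 at 0.50, WARS at 0.44 and ASNS at 0.41. ATF4 did not pass in that contrast (0.12, adjusted p = 0.212), and DDIT3 had -0.10. The count of 15 members in that contrast was 0 with limma-trend and 9 to 25 when 1 library was left out.

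Most sensors and degradation genes were also lower in pair 3 than in pair 2. ERN1 differed by -0.64, XBP1 by -0.36 and ATF6 by -0.33, whereas EIF2AK3 had -0.05 (adjusted p = 0.65). The degradation genes HERPUD1, SEL1L and EDEM1 differed by -0.74, -0.53 and -0.28.

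Averaged over the 23 ATF4 targets, log2 CPM in the std, 2 and 3 libraries deviated from the mean over the 6 libraries by 0.27, 0.13 and -0.49 in pBabe-GNA13 and by 0.42, 0.15 and -0.49 in pBabe-vector. For the 14 chaperones it deviated by -0.03, -0.19 and -0.04 and by 0.13, 0.21 and -0.07. Other features moved with the pairs as well. KLK3, KLK2, TMPRSS2 and FOLH1 of the 6 LNCaP markers were lower in pair 3 than in pair 2, VWF and COL1A1 were lower and KRT5 higher, and the summed LNCaP markers were lowest in pair 3 of both lines, at 4818 and 4052 CPM. Their part in the differences of the members was not tested. Library totals in pairs 2 and 3 were alike, at 33992353 and 34865452 counts in pBabe-GNA13 and 35152588 and 33002160 in pBabe-vector.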

How the data were processed

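RNA from 3 libraries of pBabe-GNA13 and 3 of pBabe-vector LNCaP cells was sequenced as 150-nt paired-end reads. Per its methods, the authors checked reads with FastQC 0.11.7, aligned them with STAR to GRCh38 with Gencode 38, and counted them per gene with featureCounts. The deposited values are whole-number counts per gene symbol, and 0 columns were left out. The use of strand is not given in the sources used here, and 21 of 45 members are overlapped by a gene on the other strand. Gene positions and lengths (canonical transcripts) came from Gencode 44 on the same build, not from the release the study used.

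Counts were normalized by TMM and tested over all 17297 genes, without a filter, with the quasi-likelihood test of edgeR 4.0.16 (R 4.3.3) and Benjamini-Hochberg adjustment, called at an adjusted p under 0.05. CPM values are TMM-normalized, errors of log2 fold changes are standard errors, and log2 fold changes are pBabe-GNA13 minus pBabe-vector. The standard errors come from the test, which shares spread across genes, and can be narrower than the spread of a gene's own pairs. For MANF (± 0.07 with the block), the differences in the std pair, pair 2 and pair 3 were -0.29, -0.79 and -0.14. The line was the only term, and a fit with the replicate pair as a block was the alternative. Over 12778 genes, deviations from the group means correlated at 0.659, 0.807 and 0.888 in the std pair, pair 2 and pair 3, and at -0.736 to 0.125 between libraries of different pairs, so that the libraries were treated as pairs and blocked values are given. The pairing comes from the column headings. The heading of the pBabe-GNA13 std library repeats the number of replicate 2, so it was tied to its line and paired by its tag, whose meaning is not given in the sources used here. Differences between pairs were tested in the same model, with line and pair. The deviation of single libraries is a description.

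Alternatives were RLE factors, median centering, filterByExpr, DESeq2 1.42.0, limma-trend (limma 3.58.1, prior count 2), centering of each chromosome, leaving out each library and, chosen after seeing the data, leaving out each pair. Scripts were tested on simulated data. Exact permutation tests and tables were made in Python 3.11.15 with pandas 2.3.3, NumPy 2.4.6 and SciPy 1.17.1, and figures with matplotlib 3.10.9. The members and lists were chosen with earlier results of these data known. Values in every library are given for ATF4, DDIT3, ASNS, TRIB3, CHAC1, XBP1, HSPA5 and HERPUD1, the 6 members with the largest difference between lines, any member called without the block, the 5 with the smallest p in the blocked fit, and the 6 with the smallest p between pairs, 14 genes in all. Other pathway genes came from lists of 79 names, 78 of them in the table. The floor of 3 counts covers counting error only.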

Additional observations from a re-analysis of the deposited data

How the results depend on the processing

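The log2 fold change of GNA13 kept its direction and size under every alternative run. Members that differed between any pairs numbered 34, and 25 with limma-trend. Between pairs 3 and 2 they numbered 32, and 25 with limma-trend. Between the std pair and pair 3 they numbered 31, and 24 with limma-trend. Every other alternative moved these counts less. Genes called between the lines numbered 24, and 271 with DESeq2, 5 with limma-trend, 3407 with the replicate block, 2476 with the block and centered chromosomes, and 2552, 2254 and 3267 with the block but without pair 2, 3 or std. Leaving out 1 library gave 2 to 16. Members called numbered 0, and 21, 16, 12, 21 and 17 in those 5 blocked fits. The median of the ATF4 targets was -0.06 without the block and -0.21 to 0.093 when 1 library was left out. Members that differed between the std pair and pair 2 numbered 15, 0 with limma-trend, and 9 to 25 when 1 library was left out (9 without pBabe-vector replicate 1, 25 without replicate 2). For 6 genes the direction without the block turned: ATF4 without pBabe-GNA13 replicate 3 (0.029), CHAC1 without pBabe-vector replicate 1 (0.047), MTHFD2 without either of these libraries (0.08 and 0.17), SLC7A11 without pBabe-GNA13 replicate 3 (0.0057), SLC7A5 without pBabe-vector replicate 1 (0.068), and TRIB3 without the pBabe-GNA13 std library (-0.22), without pBabe-vector replicate 3 (-0.21) or with the block and without pair 2 (-0.00047), the cause of which was not tested. Over all libraries left out, ATF4 ranged from -0.50 to 0.029, CHAC1 from -0.94 to 0.047, MTHFD2 from -0.33 to 0.17, SLC7A11 from -0.70 to 0.0057, SLC7A5 from -0.77 to 0.068 and TRIB3 from -0.22 to 0.50. Without a change of direction, DDIT3 ranged from 0.30 to 1.15, ASNS from -0.70 to -0.14, GARS from -0.47 to -0.016, DNAJB9 from -0.55 to -0.14, HERPUD1 from -0.53 to -0.077, XBP1 from -0.36 to -0.084, HSPA5 from -0.38 to -0.21 and MANF from -0.46 to -0.27. Leaving out 1 library of a pair unbalances the pairs across the lines. Of the other values of the 14 named genes, 166 kept direction and call and 49 passed where the fit without the block did not. Depth did not limit the members, all of which were above 3 counts in every library; the number of libraries, 3 per line, limits the precision.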

Other observations

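The 78 other genes of the pathway in the table add to the description. With the block, 26 were lower and 5 higher in pBabe-GNA13, beside 10.4% and 9.32% of all genes, and 25 were lower and 1 higher after centering of chromosomes, beside 7.6% and 6.72%. In pair 3 against pair 2, 50 were lower and 9 higher, beside 21.4% and 20.7% of all genes. Of 27 further genes of the integrated stress response, 19 were lower and 2 higher in pair 3. GDF15, a secreted stress cytokine, stood at 893, 1905 and 231 CPM in the std, 2 and 3 libraries of pBabe-GNA13 and at 990, 1532 and 233 CPM in those of pBabe-vector, and pair 3 differed from pair 2 by -2.89 on the log2 scale (adjusted p = 4.32e-20). DDIT4, an inhibitor of mTORC1, differed by -2.06, KLHL24 by -1.82 and NUPR1 by -1.46. These 4 genes had log2 fold changes between the lines of -0.07 to 0.09 with the block, none of which passed. GDF15 was highest in pair 2 in both lines, unlike CHAC1 and ASNS, which were highest in the std pair.

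The other 15 cytosolic tRNA synthetases did not move as one between pairs 3 and 2. In pair 3, 8 were lower (LARS, IARS, MARS, NARS, YARS, TARS, CARS and DARS), beside 21.4% of all genes. Another 6 were higher (HARS, KARS, VARS, RARS, FARSA and FARSB), beside 20.7%. CARS was the lowest in pBabe-GNA13 against pBabe-vector, at -0.39 (adjusted p = 6.44e-06 with the block). Of 24 further genes of ER folding and export, 9 were lower and 1 higher between the lines with the block, beside 10.4% and 9.32% of all genes. SSR3, a subunit of the translocon-associated complex, stood at 293, 228 and 267 CPM in pBabe-GNA13 and at 358, 359 and 316 CPM in pBabe-vector, with no overlap (-0.39, adjusted p = 2.51e-05 with the block). FKBP11 was higher by 0.44 but by 0.15 after centering of chromosome 12 (adjusted p = 0.309). OS9, a lectin of ER-associated degradation also on chromosome 12, was higher by 0.39, and by 0.11 after centering (adjusted p = 0.173). These genes were named after their values were seen.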
